A study of Mus musculus with 27 samples.

Results

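Genes of the ductal epithelium were followed in RNA from whole mouse liver: 10 genes out of the 55414 in the count table, namely the keratins Krt7, Krt19 and Krt23, the adhesion and junction genes Epcam and Cldn3, the transcription factors Sox9 and Elf3, the protease gene St14, the anchoring filament gene Lad1 and the mucin gene Muc1. They were picked as known ductal genes after the counts had been seen, because some of them were very high in a single mouse given CCl4 and 4MU. The levels in the CCl4 + 4MU group are therefore described and not tested, and tests were run only between the other groups. All 10 passed the filter of a mean of 10 counts per library, but Lad1 did so only through that mouse, with a mean of 12.7 counts with its library and 3.73 without.

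The 27 libraries came from female Balb/c mice aged 8 weeks, 1 library per mouse, made from homogenised whole liver, so any cell type in the piece of tissue contributes. Over the fortnight of treatment, the control group had intraperitoneal oil and PBS into the tail vein (4 mice), the 4MU group oil and daily 4-methylumbelliferone by gavage (3 mice), the siLuc-LNP group oil and lipid nanoparticles with a non-targeting luciferase siRNA (3 mice), and the siHAS2-LNP group oil and nanoparticles with an siRNA against Has2 (3 mice). The CCl4 (2 mice), CCl4 + 4MU (4 mice), CCl4 + siLuc-LNP (4 mice) and CCl4 + siHAS2-LNP (4 mice) groups had CCl4, a hepatotoxin that causes fibrosis, in place of oil alone. Per the paper, control mice also received carboxymethyl cellulose, the carrier of 4MU, by gavage. Dosing with 4MU or nanoparticles began before the first CCl4 injection. 4-methylumbelliferone (4MU) inhibits hyaluronan synthesis, and Has2 encodes a hyaluronan synthase. The deposited totals ran from 7044386 counts in mouse 4 of the CCl4 + siHAS2-LNP group to 29425937 in mouse 4 of the CCl4 + 4MU group. Has2 itself had 0 counts in 25 of the 27 libraries and at most 2 counts, so its knockdown could not be read from these libraries. Levels are counts per 1000000 (CPM), with library sizes scaled by TMM.

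Bile ducts are lined by cholangiocytes, epithelial cells that carry simple-epithelial keratins, the adhesion molecule Epcam and the transcription factor Sox9, and that form a small share of liver cells. In chronic injury, duct-like cells multiply around the portal tracts in what is called the ductular reaction, and Sox9 and some keratins can also be switched on in hepatocytes next to the scar. Keratin 7 and keratin 19 are also made by the mesothelium that covers the liver surface. In whole tissue, fewer cells of a type and less RNA per cell cannot be told apart.

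Promoter sequence was at hand for 7 of the 10 genes in the RefSeq table used, and not for Krt19, Sox9 or St14. The windows of a pair of genes that were highest in mouse 4 of the CCl4 + 4MU group, Epcam and Muc1, are shown beside those of a pair that did not lie above all other libraries there, Krt23 and Cldn3 (1.10-fold and 1.48-fold above the median of the group mates), so that the stretches in front of their starts can be compared. Each is the 250 bases before the start site, taken from the table's GRCm38.p6 sequence and found once, base for base, in GRCm39. Capitals mark GGGCGG (bound by KLF and SP factors), ACCGGT (bound by grainyhead factors), AGGAAG (bound by ETS factors such as Elf3) or ACAAAG (SOX) on either strand.
Epcam, plus strand, GRCm39 chr17:87943157-87943406: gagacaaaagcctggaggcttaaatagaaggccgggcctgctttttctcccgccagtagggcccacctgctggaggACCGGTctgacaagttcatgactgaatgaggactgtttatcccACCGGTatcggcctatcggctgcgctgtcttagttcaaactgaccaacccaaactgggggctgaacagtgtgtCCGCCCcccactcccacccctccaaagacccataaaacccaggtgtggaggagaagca
Muc1, plus strand, GRCm39 chr3:89136113-89136362: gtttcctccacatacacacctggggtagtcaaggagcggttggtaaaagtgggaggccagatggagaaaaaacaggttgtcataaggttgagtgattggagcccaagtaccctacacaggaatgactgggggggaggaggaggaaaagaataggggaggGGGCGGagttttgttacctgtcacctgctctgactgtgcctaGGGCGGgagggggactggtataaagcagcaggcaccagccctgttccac
Krt23, minus strand, GRCm39 chr11:99383947-99384196: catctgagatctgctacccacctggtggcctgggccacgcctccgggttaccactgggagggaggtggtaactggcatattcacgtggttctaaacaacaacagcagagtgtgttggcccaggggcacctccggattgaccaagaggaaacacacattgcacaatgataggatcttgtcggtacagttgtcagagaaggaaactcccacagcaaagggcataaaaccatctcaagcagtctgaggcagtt
Cldn3, plus strand, GRCm39 chr5:135014818-135015067: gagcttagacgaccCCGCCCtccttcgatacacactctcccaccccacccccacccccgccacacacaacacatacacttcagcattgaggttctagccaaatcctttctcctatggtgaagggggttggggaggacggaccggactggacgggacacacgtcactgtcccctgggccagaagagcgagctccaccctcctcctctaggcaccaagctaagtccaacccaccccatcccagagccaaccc

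The Epcam window held ACCGGT 2 times, a word found in 1.86% of the 32851 windows of the same length in the table, and GGGCGG 1 time. GGGCGG stood 2 times in the Muc1 window and 1 time in that of Cldn3, against 32.7% of all windows with at least 1. None of the 4 words was present in the Krt23 window. AGGAAG (29.5% of all windows) and ACAAAG (16.5%) occurred in none of these 4. No word was thus shared by Epcam and Muc1 that Cldn3 lacked. These are matches of letters and not binding sites.

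**Figure D1:**
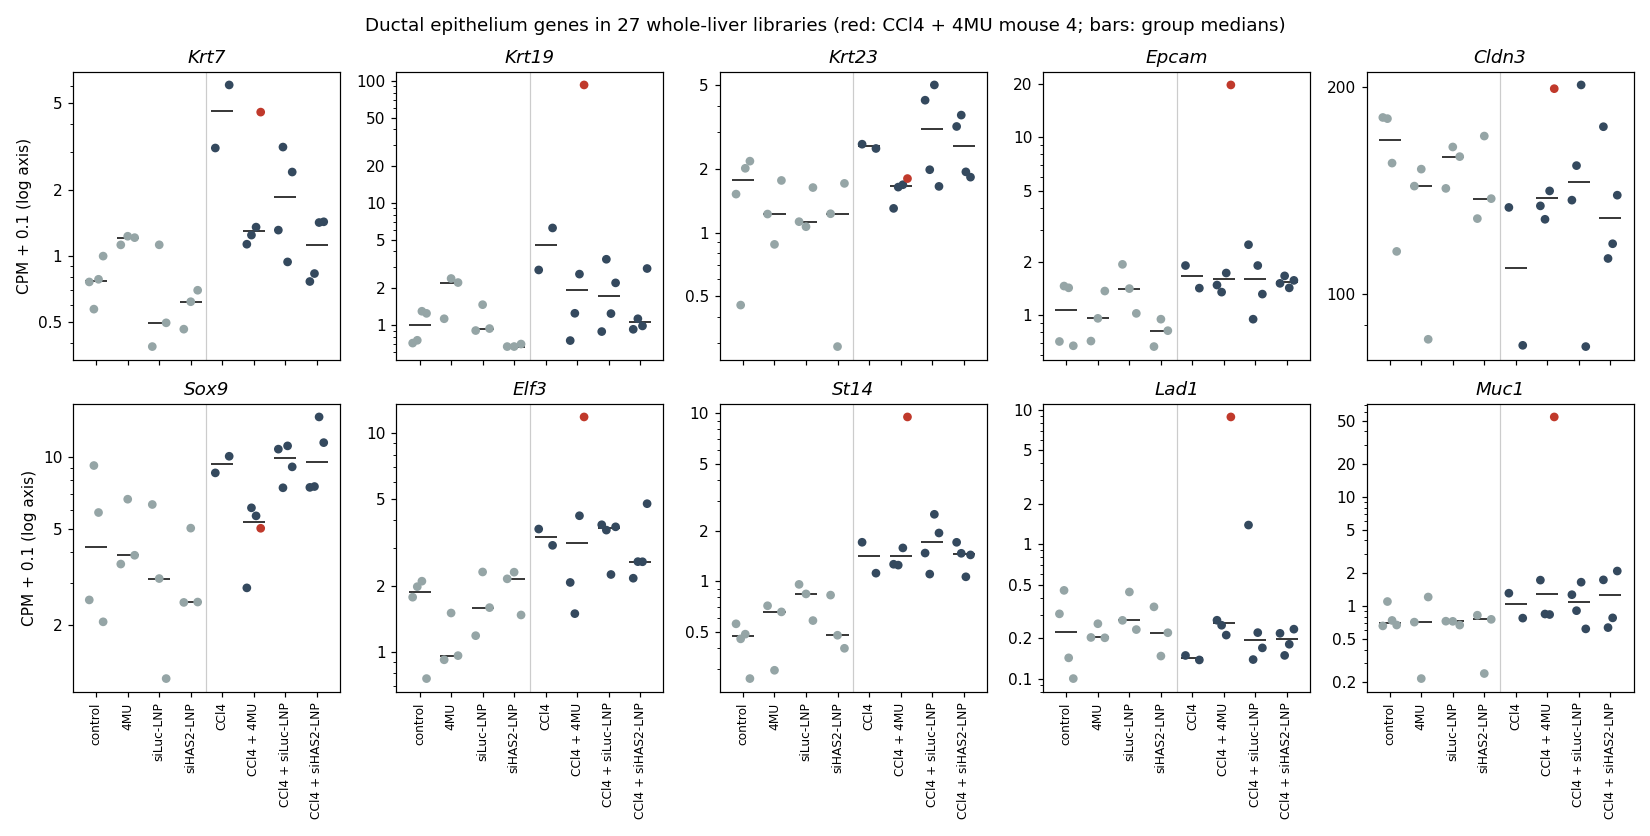
Level of each gene in every library, as CPM plus 0.1 on a log axis, by treatment group, with bars at group medians and mouse 4 of the CCl4 + 4MU group in red. In that mouse Krt19 (92.5 CPM), Muc1 (54.1), Epcam (19.6), Elf3 (11.8), St14 (9.38) and Lad1 (8.78) lay above all 26 other libraries, whereas Krt7, Krt23, Sox9 and Cldn3 did not.

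Per kilobase of exon, in the 13 libraries without CCl4, Cldn3 was by far the most abundant gene, with a median of 120.5 CPM per kb. Sox9 (0.833), Elf3 (0.509), Krt19 (0.450), Epcam (0.332), Krt23 (0.324) and Muc1 (0.266) followed on the same scale, and Krt7 (0.0938), St14 (0.0594) and Lad1 (0.0387) were lowest. Cldn3 encodes claudin-3, a sealing protein of tight junctions that hepatocytes also make. Neighbours in this order overlapped between libraries, except that Cldn3 stood apart from all others.

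Mouse 4 of the CCl4 + 4MU group stood apart from its 3 group mates in 7 of the 10 genes. Krt19, the smallest keratin and a standard marker of bile ducts, was at 0.645, 1.15 and 2.51 CPM in mice 1 to 3 and at 92.5 CPM (2602 counts) in mouse 4. Muc1, a membrane mucin of apical epithelial surfaces, was at 1.63, 0.747 and 0.738 CPM in mice 1 to 3 and at 54.1 CPM in mouse 4. Mouse 4 was thus 80.7-fold above the median of the other mice for Krt19 and 72.4-fold for Muc1.

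Epcam, an adhesion molecule of epithelial progenitors and ducts, was at 1.38, 1.25 and 1.62 CPM in mice 1 to 3 and at 19.6 CPM in mouse 4. Elf3, an epithelial ETS-family transcription factor, was at 1.98, 1.40 and 4.1 CPM in mice 1 to 3 and at 11.8 CPM in mouse 4. St14, which encodes the membrane serine protease matriptase, was at 1.16, 1.15 and 1.48 CPM in mice 1 to 3 and at 9.38 CPM in mouse 4. The ratio of mouse 4 to the median of its mates was 14.2 for Epcam, 5.97 for Elf3 and 8.08 for St14. Lad1, which encodes ladinin, a protein of anchoring filaments, had 4, 3 and 3 counts in mice 1 to 3 and 247 counts in mouse 4.

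Krt7, the partner of keratin 19 in ducts, was raised less, with 1.03, 1.15 and 1.25 CPM in mice 1 to 3 and 4.44 CPM in mouse 4, and mouse 2 of the CCl4 group was higher still at 5.95 CPM. Krt23, an inducible acidic keratin, was at 1.20, 1.54, 1.59 and 1.71 CPM in mice 1 to 4 of the CCl4 + 4MU group. Sox9, which marks ducts and their progenitors, was at 2.75, 6.03, 5.58 and 4.94 CPM in the same mice. Cldn3 was at 134.1, 128.2, 141.0 and 198.7 CPM, and mouse 3 of the CCl4 + siLuc-LNP group reached 201.2 CPM. Neither Krt23 nor Sox9 set mouse 4 apart. The keratins thus parted in this library: Krt19 had 20.8 counts for each count of Krt7, against 0.625 to 2.80 (median 1.25) in the 26 other libraries.

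Of the 10 genes 6, or 60%, lay in mouse 4 above every other library, against 8.42% of the 14114 genes tested, and 7 were more than 2-fold above the median of its mates on the log2(CPM + 0.5) scale, against 2.13% of tested genes. As the genes were chosen on these values, nothing is read from these shares. Of the 15 tested genes most raised in this library, Krt19 and Muc1 ranked high. Dmbt1, a secreted scavenger-receptor protein of mucosal surfaces and ducts, led with 2347 CPM, against at most 0.860 CPM in any other library. The others were Adgrg7, Muc17 (a membrane mucin), Slc26a3 and Slc9a3 (apical ion exchangers), Car9 (a carbonic anhydrase), Mmp7 (matrilysin), Ckmt1, Myh11 (smooth muscle myosin), Klf5 (an epithelial transcription factor), Clic6, Slc14a1 (a urea transporter) and Flrt3. Adgrg7, Muc17 and Slc26a3 had 0 counts in all 3 group mates and 47.5, 42.3 and 34.7 CPM in mouse 4.

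Genes that work beside the chosen ones were also high in this library in part. Of 5 partners of matriptase, its inhibitor gene Spint1 was at 6.90 CPM in mouse 4 against at most 1.60 CPM elsewhere, while Spint2, a second inhibitor, was at 210.3 CPM against at most 202.5. Of 14 duct and epithelial regulators, 5 lay above all other libraries, among them Klf5 (9.88 CPM), Ehf (8.07), an ETS factor close to Elf3, and Esrp1 (2.31), a splicing regulator of epithelia. Of 24 further biliary genes, 6 lay above all other libraries, among them Cd24a (27.9 CPM), Cldn7 (7.29 CPM) and Wfdc2 (25.2 CPM). Spp1, the osteopontin gene, was not among them, at 146.8 CPM beside 102.7 to 194.6 CPM in the group mates.

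Markers of other tissues were read in the same library. Of 7 smooth muscle genes 6 lay above all other libraries, and their summed level was 64.1 CPM, against 13.9 to 16.8 CPM in the group mates and 7.30 to 36.2 CPM in all 26 other libraries. Of 10 intestinal genes, Lgals4 (39.3 CPM), Olfm4 (6.29) and Phgr1 (1.60, with 0 counts in all other libraries) lay above all others. Cdh17 (0.960 CPM against 3.95 to 7.13 CPM in the group mates) and Fabp2 (50 CPM against 67.7 to 116.0 CPM) lay below the group mates, and the defining factors Cdx1 and Cdx2 had 0 counts. Both Cdh17 and Fabp2 varied widely among the other livers. Fabp2 was at 42.0 to 139.5 CPM without CCl4. Cdh17 was at most at 0.114 CPM without CCl4 and at 2.4 to 29.9 CPM in the CCl4 libraries without 4MU. Muc17, Slc26a3, Slc9a3 and Adgrg7, named above, were in none of the marker lists. Of 10 pancreatic acinar genes 8 had 0 counts, including Cpa1, Pnlip and Prss2. The others were Ctrb1 and Cela1. Ctrb1, at 0.213 CPM from 6 counts, lay above all other libraries, where it was at most at 0.086 CPM. Cela1, at 11.8 CPM, lay within the range of the group mates. Gkn1, Gkn2, Tff1 and Muc5ac, of 10 gastric and mucous genes, had 0 counts. Of 10 squamous genes 6 had 0 counts, Krt5 and Trp63 among them. The 9 hepatocyte genes summed to 190400 CPM, within the 165100 to 197600 CPM of the group mates, and the 7 mesothelial genes to 18.2 CPM against 5.89 to 16.7 CPM. The part of other tissue in the high values was not tested.

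**Figure D2:**
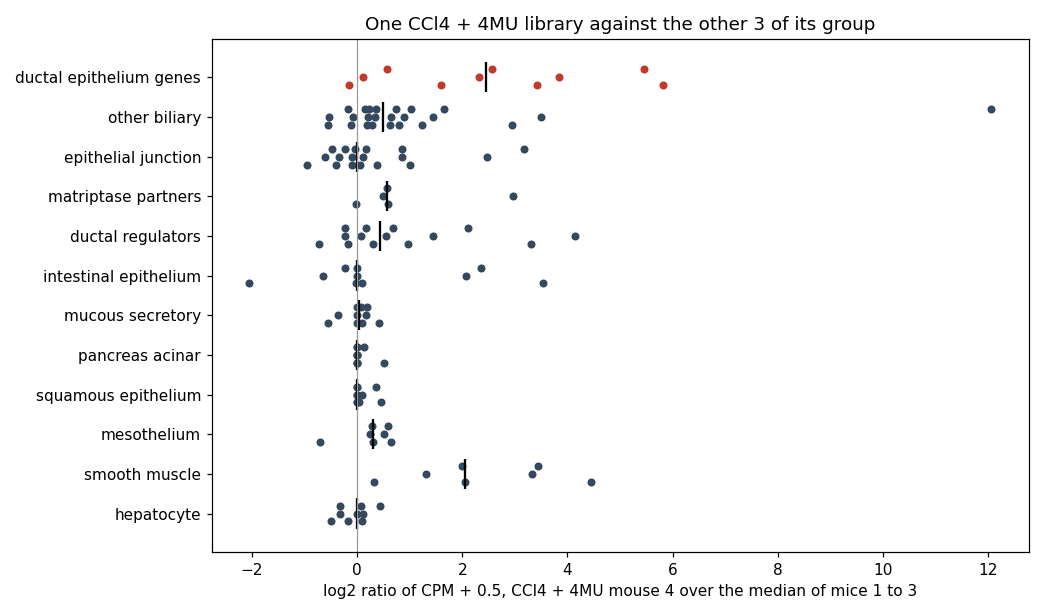
Log2 ratio of CPM + 0.5 in mouse 4 of the CCl4 + 4MU group to the median of mice 1 to 3, 1 point per gene, by gene list, with bars at list medians. The ductal epithelium genes (median 2.44) and the smooth muscle genes (median 2.06) lie to the right, the hepatocyte genes around 0 (median -0.004), and Dmbt1 is the single point near 12.

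The CCl4 + 4MU group mean thus depended on 1 mouse. Krt19 was at a mean of 24.2 CPM in the CCl4 + 4MU group with all 4 mice and 1.43 CPM without mouse 4, beside 4.43 CPM in the CCl4 group and 1.82 CPM in the 4MU group. The log2 ratio of CCl4 + 4MU to CCl4 went from 2.45 to -1.63 for Krt19, from 1.94 to -0.14 for Epcam, from 0.56 to -0.39 for Elf3 and from 1.33 to -0.05 for St14 when mouse 4 was left out. Muc1 went from 3.92 to 0.14 in the same ratio. The ratio of CCl4 + 4MU to CCl4 moved little for Sox9 (-0.93 with mouse 4 and -0.94 without) and Krt23 (-0.71 and -0.77). These ratios carry no test, and the CCl4 group had only 2 mice.

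The question of what CCl4 did to the ductal genes was asked in the 3 arms without 4MU, as the mean of the differences between CCl4 and control, CCl4 + siLuc-LNP and siLuc-LNP, and CCl4 + siHAS2-LNP and siHAS2-LNP. Of the 10 genes 5 rose with CCl4 in this mean (edgeR quasi-likelihood test, Benjamini-Hochberg adjusted over 14114 genes, threshold 0.05) and none fell: Krt7, St14, Sox9, Krt23 and Elf3. Krt19, Epcam, Cldn3, Lad1 and Muc1 did not pass. Of all tested genes 24% rose and 47.3% were called in either direction, so calls were common throughout the liver. The median log2 fold change was 1.04 over the 10 genes and -0.01 over all tested genes. Both the count of 10 and this median include Lad1, which passed the filter only through mouse 4 of the CCl4 + 4MU group.

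Of the keratins, Krt7 was at 0.661, 0.472, 0.683 and 0.899 CPM in the control mice and at 3.01 and 5.95 CPM in the CCl4 mice. Krt7 was at 0.286, 1.02 and 0.395 CPM in the siLuc-LNP mice and at 1.21, 3.04, 0.840 and 2.32 CPM in the CCl4 + siLuc-LNP mice. In the siHAS2 arm, Krt7 was at 0.363, 0.518 and 0.598 CPM without CCl4 and at 0.665, 0.732, 1.32 and 1.33 CPM with it. The libraries with and without CCl4 did not overlap in the untreated and siHAS2 arms and overlapped in the siLuc arm. Krt7 was 3.51-fold higher with CCl4 on average (log2 fold change 1.81 ± 0.32 (SE), adjusted p = 5.08e-05).

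Krt23 was at 1.42, 0.354, 1.92 and 2.08 CPM in the control mice and at 2.53 and 2.41 CPM in the CCl4 mice. Krt23 in the siLuc arm was at 1.03, 0.968 and 1.54 CPM without CCl4 and at 4.15, 1.89, 4.92 and 1.56 CPM with it. Krt23 in the siHAS2 arm was at 1.13, 0.189 and 1.61 CPM without CCl4 and at 3.09, 3.51, 1.84 and 1.73 CPM with it. All CCl4 mice lay above the matching mice without CCl4 in each arm, in the siLuc arm by a narrow margin. The averaged log2 fold change of Krt23 was 1.18 ± 0.30 (SE, adjusted p = 0.00234).

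Krt19 was at 0.610, 0.649, 1.20 and 1.14 CPM in the control mice and at 2.72 and 6.13 CPM in the CCl4 mice. In the siLuc arm, Krt19 was at 0.800, 1.37 and 0.834 CPM without CCl4 and at 0.783, 3.35, 1.14 and 2.11 CPM with it. In the siHAS2 arm, Krt19 was at 0.565, 0.565 and 0.598 CPM without CCl4 and at 0.821, 1.02, 0.882 and 2.80 CPM with it. The groups overlapped in the siLuc arm only. The averaged log2 fold change of Krt19 was 1.42 ± 0.69 (SE, adjusted p = 0.0962), with a spread estimated in part from mouse 4 of the CCl4 + 4MU group. In a fit without that mouse, an alternative chosen after seeing the data, Krt19 was at 1.43 and passed the test (adjusted p = 0.000628).

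Sox9 was at 2.44, 9.08, 5.76 and 1.96 CPM in the control mice and at 8.46 and 9.93 CPM in the CCl4 mice, so that both groups overlapped. In the siLuc arm, Sox9 was at 6.23, 3.02 and 1.10 CPM without CCl4 and at 10.6, 7.32, 11 and 8.97 CPM with it. In the siHAS2 arm, Sox9 was at 2.38, 4.95 and 2.39 CPM without CCl4 and at 7.35, 7.41, 14.5 and 11.3 CPM with it. In neither siRNA arm did the libraries overlap, and the averaged rise was 2.56-fold (log2 fold change 1.35 ± 0.28 (SE), adjusted p = 0.000331). The 4 CCl4 + 4MU mice, at 2.75 to 6.03 CPM, lay below all 10 mice given CCl4 without 4MU, the lowest of which was at 7.32 CPM, and within the range of the mice without CCl4. This difference was not tested. The share of all genes in which the CCl4 + 4MU mice lie apart in this way is not given here, so nothing is read from it.

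Elf3 was at 1.68, 1.89, 2.00 and 0.654 CPM in the control mice and at 3.55 and 2.97 CPM in the CCl4 mice. In the siLuc arm, Elf3 was at 1.08, 2.22 and 1.49 CPM without CCl4 and at 3.72, 3.51, 2.16 and 3.63 CPM with it. Elf3 in the siHAS2 arm was at 2.06, 2.21 and 1.37 CPM without CCl4 and at 2.07, 2.49, 2.48 and 4.67 CPM with it. The libraries were apart in the untreated arm and overlapped slightly in both siRNA arms. The averaged log2 fold change of Elf3 was 0.89 ± 0.31 (SE, adjusted p = 0.0192).

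St14 was at 0.458, 0.354, 0.384 and 0.163 CPM in the control mice and at 1.60 and 1.02 CPM in the CCl4 mice. St14 in the siLuc arm was at 0.857, 0.740 and 0.483 CPM without CCl4 and at 1.37, 1.00, 2.4 and 1.83 CPM with it. St14 in the siHAS2 arm was at 0.726, 0.377 and 0.299 CPM without CCl4 and at 1.60, 1.36, 0.962 and 1.33 CPM with it. The 10 mice given CCl4 in the 3 arms all lay above every mouse not given it, the highest of which was at 0.857 CPM. The share of all genes that separate in this way is not given here, for St14 or the other genes. The averaged log2 fold change of St14 was 1.54 ± 0.38 (SE, adjusted p = 0.00179). St14 rested on 4 to 18 counts per library without CCl4 and on 10 to 53 in the 10 CCl4 libraries of the 3 arms.

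Epcam was between 0.565 and 1.83 CPM in the 13 mice without CCl4 and between 0.848 and 2.39 CPM in the 10 CCl4 mice of the 3 arms, with an averaged log2 fold change of 0.64 ± 0.43 (SE, adjusted p = 0.234). Epcam in the siHAS2 arm was at 0.565, 0.848 and 0.717 CPM without CCl4 and at 1.41, 1.56, 1.32 and 1.47 CPM with it, and these did not overlap. Without mouse 4 of the CCl4 + 4MU group in the fit, the averaged value of Epcam was 0.64 with an adjusted p of 0.0191. Muc1 had an averaged log2 fold change of 0.77 ± 0.70 (SE, adjusted p = 0.386), and its libraries overlapped in every arm. Cldn3 was at 85.7 to 180.4 CPM without CCl4, and its averaged log2 fold change was -0.24 ± 0.15 (SE, adjusted p = 0.188). Lad1 had at most 6 counts in any library without CCl4, and 33 counts in mouse 1 of the CCl4 + siLuc-LNP group were its highest value outside mouse 4 of the CCl4 + 4MU group.

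**Figure D3:**
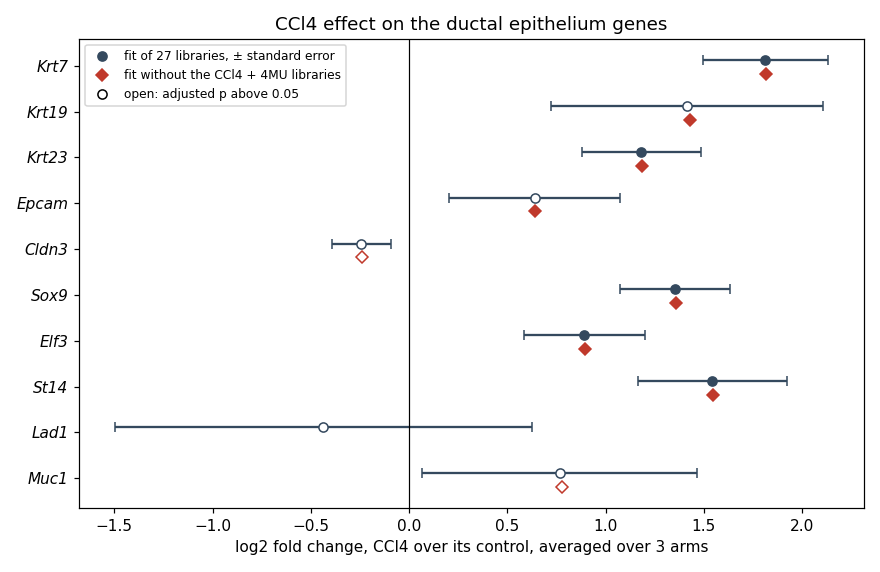
Log2 fold change with CCl4, averaged over the untreated, siLuc-LNP and siHAS2-LNP arms, for each gene (circles, ± standard error from the fit of 27 libraries; diamonds, fit without the 4 CCl4 + 4MU libraries; filled where the adjusted p was below 0.05). Krt7 (1.81), St14 (1.54) and Sox9 (1.35) lie farthest to the right among the filled circles, and Krt19 and Epcam are filled only as diamonds. Lad1 was not tested in the smaller fit.

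Within single arms fewer genes passed. In CCl4 against control, Krt7 (log2 fold change 2.70 ± 0.53 (SE), adjusted p = 0.000359) and St14 (1.94 ± 0.70, adjusted p = 0.0353) rose, where 34% of all tested genes were called by edgeR. In CCl4 + siLuc-LNP against siLuc-LNP, Krt7 (1.73 ± 0.54, adjusted p = 0.0216) and Sox9 (1.47 ± 0.48, adjusted p = 0.0270) rose, where 24.2% of tested genes were called. In CCl4 + siHAS2-LNP against siHAS2-LNP only Sox9 rose (1.64 ± 0.48, adjusted p = 0.0255), where 12.8% were called. The single-arm counts of 2, 2 and 1 of 10 genes were thus near or below the background. Without mouse 4 of the CCl4 + 4MU group in the fit they were 4 (with Krt19 and Elf3), 3 (with St14) and 2 (with St14). The share of all genes called in that fit is not given here. The St14 call was lost without mouse 2 (adjusted p = 0.0559), 3 (0.0519) or 4 (0.0865) of the control group and without CCl4 mouse 1 (0.176) or 2 (0.0766). The Krt7 call of the siLuc arm was lost without siLuc-LNP mouse 1 (adjusted p = 0.108) or 3 (0.0868) or CCl4 + siLuc-LNP mouse 2 (0.0674). The Sox9 call was lost in the siLuc arm without siLuc-LNP mouse 2 (adjusted p = 0.0837) or 3 (0.130) or CCl4 + siLuc-LNP mouse 1 (0.0529), and in the siHAS2 arm without siHAS2-LNP mouse 1 (0.113) or 3 (0.117) or CCl4 + siHAS2-LNP mouse 3 (0.0882).

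Among the CCl4 groups, 1 gene differed. Krt7 was lower in the CCl4 + siHAS2-LNP mice than in the CCl4 mice, at 0.665 to 1.33 CPM against 3.01 and 5.95 CPM (log2 fold change -2.19 ± 0.53 (SE), edgeR adjusted p = 0.00845), where 14.4% of tested genes were called. The call was lost without mouse 2 of the CCl4 group (log2 fold change -1.64, adjusted p = 0.209), and without mouse 4 of the CCl4 + 4MU group in the fit Krt19 passed as well (-1.84, adjusted p = 0.0232). Of 6 tested mesothelial genes 4 (Upk3b, Upk1b, Lrrn4 and Wt1) and of 6 tested smooth muscle genes 2 (Des and Smtn) were lower in the same comparison, with median log2 fold changes of -1.84 and -1.43, and their part in the Krt7 difference was not tested. In CCl4 + siLuc-LNP against CCl4 none of the 10 genes passed (0.248% of all tested genes did), and 1 had an unadjusted p below 0.05, Krt7 at -1.26 ± 0.50 (SE). None passed in CCl4 + siHAS2-LNP against CCl4 + siLuc-LNP either (1.09% of tested genes called), where 0 had an unadjusted p below 0.05 and Krt7 was at -0.93 ± 0.47 (SE, adjusted p = 0.322). DESeq2 called none of the 10 in either comparison.

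Without CCl4 no difference was detected in these genes. None of the 10 passed in 4MU against control (0.00709% of tested genes called), in siLuc-LNP against control (0.213%) or in siHAS2-LNP against siLuc-LNP (0.0425%). None had an unadjusted p below 0.05 in these comparisons with edgeR, and DESeq2 called none either. With 4MU alone, Krt7 was at 1.02, 1.13 and 1.11 CPM, above all 4 control mice, and Krt19 was at 1.02, 2.3 and 2.12 CPM, which overlapped the control mice. Neither difference passed (log2 fold change 0.66 ± 0.52 (SE), edgeR adjusted p = 0.947 for Krt7 and 0.99 ± 1.11, adjusted p = 0.992 for Krt19), and Elf3, at 0.819, 1.41 and 0.860 CPM, did not pass either (-0.57 ± 0.55, adjusted p = 0.973). The CCl4 response did not differ detectably between the siHAS2 and siLuc arms in any of the 10 genes (edgeR interaction test, 0.0354% of tested genes called), and 0 of the 10 had an unadjusted p below 0.05 in it.

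The keratins Krt7 and Krt19 ran beside mesothelial genes. In the averaged CCl4 effect, where 24% of all tested genes rose and 47.3% were called, all 6 tested mesothelial genes of 7 listed rose. They were led by Wt1 (log2 fold change 2.79 ± 0.34 (SE), adjusted p = 3.47e-07), Muc16 (1.98 ± 0.49, adjusted p = 0.00189), Upk1b (1.86 ± 0.41, adjusted p = 0.000589) and Lrrn4 (1.59 ± 0.33, adjusted p = 0.000399). Their summed level was 19.6 and 48.5 CPM in the CCl4 mice, 1.12 to 8.92 CPM in the control mice, 3.43 to 6.43 CPM in the siLuc-LNP mice and 4.54 to 6.50 CPM in the siHAS2-LNP mice. With CCl4, the same sum was 6.84 to 23.9 CPM in the siLuc arm and 4.73 to 17.1 CPM in the siHAS2 arm. Mouse 2 of the CCl4 group, the highest of all 27 in Krt7 and the highest but 1 in Krt19, was also the highest in the mesothelial sum and the lowest in the hepatocyte sum (86330 CPM). In the CCl4 + siLuc-LNP group, mouse 2, which had the highest mesothelial sum (23.9 CPM), had the highest Krt7 (3.04 CPM) and Krt19 (3.35 CPM) too. Sox9 was lowest in that mouse of its group (7.32 CPM), but in the CCl4 group it was higher in mouse 2 (9.93 CPM) than in mouse 1 (8.46 CPM). The part of mesothelium in the Krt7 and Krt19 differences was not tested.

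**Figure D4:**
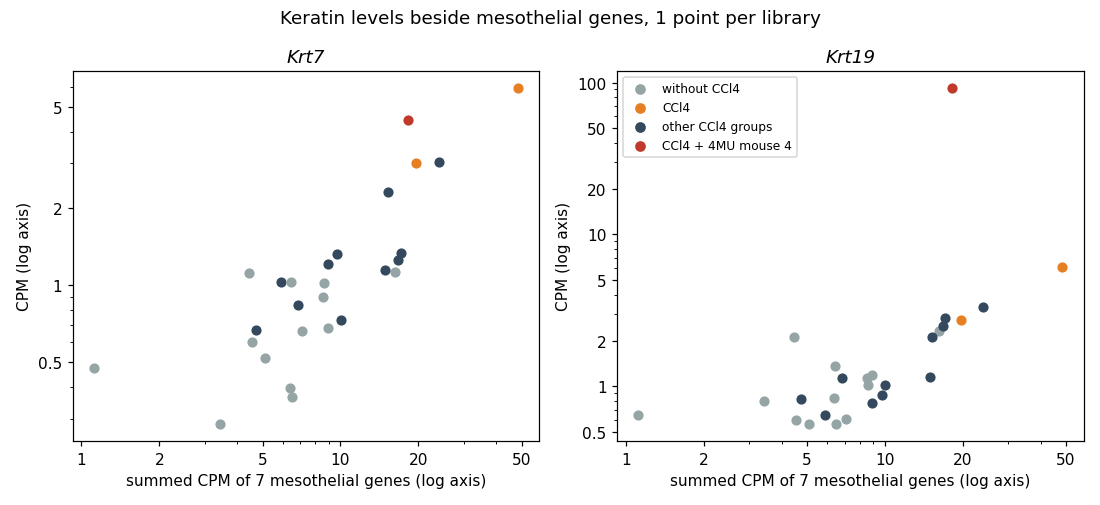
Krt7 (left) and Krt19 (right) in CPM against the summed CPM of 7 mesothelial genes, both on log axes, 1 point per library. Mouse 2 of the CCl4 group (48.5 CPM on the horizontal axis) is at the top of Krt7, and mouse 4 of the CCl4 + 4MU group (18.2 CPM) lies far above all other points in Krt19 alone.

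Of 24 further biliary genes 17 were tested, of which 10 rose, 1 fell and 6 did not pass, with a median log2 fold change of 0.74, beside 24% that rose and 47.3% called among all tested genes. Ddr1, a collagen receptor (3.17 ± 0.20 (SE), adjusted p = 3.81e-12), Spp1 (2.52 ± 0.20, adjusted p = 3.53e-10), Bicc1 (2.2 ± 0.19, adjusted p = 7.37e-10) and Tspan8 (1.96 ± 0.37, adjusted p = 0.000119) rose most on the log2 scale. Dcdc2a, a gene of the primary cilium, fell by 1.22. Some listed genes passed the count filter only through mouse 4 of the CCl4 + 4MU group. Dmbt1 had 66044 counts there and at most 20 elsewhere, and the duct regulator Klf5 had 278 and at most 14. The numbers tested and the medians of such lists thus rest in part on that library. Spp1 went from 23.3 to 65.4 CPM without CCl4 to 126.3 to 676.4 CPM with it, with no overlap. Of the genes that rose, Krt8, Krt18 and Tm4sf4 were at medians of 254.5, 254.0 and 170.2 CPM without CCl4, beside 0.834 CPM for Krt19. Which cells these genes came from was not tested.

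Of 18 epithelial junction genes 16 were tested, of which 5 rose and 2 fell, a share near the 47.3% called among all tested genes, with Cdh1 (E-cadherin, log2 fold change 2.59 ± 0.15 (SE)) and Marveld3 (2.09 ± 0.20) highest, Tjp1 at 0.53 ± 0.12 and Cldn2 lower at -0.69 ± 0.26. Of 12 duct regulators tested of 14, 6 rose and none fell. The share called was again near the 47.3% among all tested genes, of which 24% rose. Sox4 (1.04 ± 0.20), Notch1 (0.98 ± 0.18), the Notch target Hey1 (0.88 ± 0.24) and the Notch ligand Jag1 (0.69 ± 0.19) led. Klf5 and Ehf, also tested, were at 9.88 and 8.07 CPM in mouse 4 of the CCl4 + 4MU group. Elsewhere they were at most at 0.527 and 1.07 CPM. Of 4 tested matriptase partners only Tmprss6, a hepatocyte relative of St14, passed, and it was lower (-0.55 ± 0.14). Spint1 (0.55 ± 0.55) and Prss8 (0.33 ± 0.30), which encode an inhibitor and a substrate of matriptase, did not pass.

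Among markers of other tissues in the same averaged effect, 4 of 6 tested smooth muscle genes rose and none fell. Among all tested genes, 24% rose and 47.3% were called. Lmod1 was at a log2 fold change of 1.47, Smtn at 1.35, Synpo2 at 1.22 and Des, also a stellate cell gene, at 0.73. In mouse 4 of the CCl4 + 4MU group, Actg2, Lmod1 and Synpo2 were at 6.54, 3.20 and 3.23 CPM. Elsewhere they were at most at 0.527, 1.09 and 0.933 CPM. Which smooth muscle genes were tested thus rests in part on that library. Of 9 hepatocyte genes 1 rose (Cps1, 0.83) and 3 fell (Apoa2, -1.79; Ttr, -0.52; Alb, -0.50). Of 5 tested intestinal genes, Fabp2 rose (0.69), Lgr5 fell (-1.29) and Cdh17 rose from at most 0.114 CPM without CCl4 to 2.4 to 29.9 CPM. Of 3 tested mucous genes, Tff3, a trefoil peptide, rose from at most 0.341 CPM to 0.391 to 7.59 CPM, and Pigr, the receptor that carries IgA into bile, fell by 1.11 on the log2 scale. The 1 tested pancreatic gene, Cela1, fell by 0.59, and the 1 tested squamous gene did not pass.

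The genes were also ranked by how far their pattern, as standardised log2(CPM + 0.5), lay from the mean pattern of the 10. Each of the 10 enters this mean, so its own distance is shorter by construction, here and over fewer libraries. Nothing is therefore read from the distances of the 10 against the median of all tested genes. Over the 27 libraries, Epcam (root mean square distance 0.455), St14 (0.464) and Muc1 (0.515) were nearest to the mean, and Sox9 (0.937), Krt23 (0.966) and Cldn3 (1.07) farthest, where the median of all tested genes was 1.22. The 10 nearest genes outside the list were Tmem54, Parm1, Mtcl1, Trim46, Hkdc1, Slc44a4, Mapk13, Mgat3, Il17re and Mmp7, at 0.467 to 0.522. Tmem54 was at 6.79 CPM in mouse 4 of the CCl4 + 4MU group and at most at 0.978 CPM elsewhere, so this likeness leaned on that library.

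Over the 23 libraries outside the CCl4 + 4MU group, the order of the 10 genes changed. St14 (0.607), Epcam (0.655) and Sox9 (0.665) were now nearest to their mean, and Lad1 (0.992) and Cldn3 (1.17) farthest, with a median of 1.17 over all tested genes. The nearest genes outside the list were Cd63, Spp1, Timp1, Zdhhc2, Osbpl3, H2az1, Snrnp25, Kdelr3, Phgdh and Rpn2, at 0.535 to 0.571. None of them was among the 10 found with all libraries. Timp1, a metalloproteinase inhibitor of fibrotic liver, was at no more than 0.398 CPM in any mouse without CCl4 and at 1.56 to 5.57 CPM in the 10 CCl4 mice of the 3 arms.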

How the data were processed

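Per the labels and the study's methods, polyA RNA from whole-liver homogenate was sequenced in paired-end, strand-marking libraries. The authors trimmed the reads with Trimmomatic 0.39, aligned them to GRCm39 with HISAT2 and counted them per gene with featureCounts; they deposited raw counts, not normalised. The HISAT2 version and the strand setting of the counting are not given in the sources used here. Gene IDs were matched to GENCODE vM39 (54749 of 55414).

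Counts were fitted in edgeR 4.0.16 (R 4.3.3) by quasi-likelihood with TMM scaling, 1 mean per group over 27 libraries, after a filter of a mean of at least 10 counts (14114 genes). Benjamini-Hochberg adjustment covered all tested genes, and the threshold was 0.05. CPM are from the same scaling, per kilobase of merged exons where stated. The fit was also run on simulated counts, drawn with the spread estimated in the main fit, and the outcome is not given here. No pair of libraries of a group agreed within sampling noise. DESeq2 1.42.0, its size factors in edgeR, no filter, filterByExpr, a replicate block, fits of fewer groups and leaving out each mouse of the compared groups were alternatives; leaving out each CCl4 + 4MU mouse was added after seeing the data.

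Named were the 10 genes, up to 4 called genes with the largest change per further list, the 10 genes nearest in pattern and the 15 most raised in the CCl4 + 4MU library with the highest summed level. The 10 genes and the lists were chosen with earlier results of these data known. Intervals are not given for single counts, and a count of 0 allows up to 3 counts. Python 3.11.15 drew the figures.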

Additional observations from a re-analysis of the deposited data

Results flagged for a closer look

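Samples far from the rest of their group were looked for in the groups of 4 mice, where the gap of the highest or lowest mouse to its neighbour, divided by the range of the group, was set against Dixon's 95% critical value. Of 40 sets of values (10 genes in 4 groups) 10 exceeded it. Mouse 4 of the CCl4 + 4MU group was far above the others in Krt7 (ratio 0.935), Krt19 (0.980), Epcam (0.979), St14 (0.960), Lad1 (0.993) and Muc1 (0.983). These 6 are among the values on which the genes were chosen, so nothing is read from their number. For the other groups, chance alone gives about 1 such set in 20. Elf3 in the same mouse, at 11.8 CPM, did not exceed the critical value. In the CCl4 + siHAS2-LNP group, mouse 4, the library with the fewest counts of all 27, was highest in Krt19 (0.897, from 21 counts) and Elf3 (0.840, from 35 counts). In the CCl4 + siLuc-LNP group, mouse 3 was lowest in Elf3 (0.866) and mouse 1 was highest in Lad1 (0.935, from 33 counts).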

How the results depend on the processing

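The averaged CCl4 effect called 5 of the 10 genes in each fit that left out 1 mouse of the compared groups or mouse 1, 2 or 3 of the CCl4 + 4MU group, 7 in that without mouse 4 of the CCl4 + 4MU group (leaving out CCl4 + 4MU mice was chosen after seeing the data), 5 with DESeq2 and with its size factors, 7 in the fit without the CCl4 + 4MU libraries, which added Krt19 and Epcam, and 8 with only the compared groups, which added Muc1. In CCl4 against control 2 genes passed, 5 without a low-count filter, 4 without the CCl4 + 4MU libraries, and 1 to 4 when a mouse was left out, with 4 only without mouse 4 of the CCl4 + 4MU group. In the siLuc arm 2 passed, 4 without a filter, 4 without the CCl4 + 4MU libraries, 0 with only the compared groups, and 0 to 3 when a mouse was left out. In the siHAS2 arm 1 passed, 2 with DESeq2, 2 without a filter, 2 without the CCl4 + 4MU libraries, 3 with only the compared groups, and 0 to 2 when a mouse was left out. In CCl4 + siHAS2-LNP against CCl4 1 passed, 2 without a filter, without the CCl4 + 4MU libraries or with only the compared groups, and 0 to 2 when a mouse was left out, the counts of 2 again without mouse 4 of the CCl4 + 4MU group. The causes were not tested. The share of all genes called in each alternative is not given here, so the counts show only how calls shift with the fit. The comparisons in which none of the 10 genes passed had none under every alternative that was run, and no log2 fold change of a gene changed sign in the averaged CCl4 effect. Deviations of same-numbered mice correlated at -0.347 to 0.361 over 83 pairs (median -0.0193), above 0.1 in 18. Differently numbered mice were not compared, so these values cannot show whether the replicate number pairs mice. With the replicate block 5 genes passed in the averaged effect, 3 in CCl4 against control, 3 in the siLuc arm and 2 in the siHAS2 arm. Depth limits Lad1, St14 and Muc1 most, which outside mouse 4 of the CCl4 + 4MU group had at most 33, 53 and 42 counts.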
